A study of Rattus norvegicus with 8 samples.

Results

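The genes described here code for cytokines, their receptors and the TNF and NF-kB signalling proteins of rat hippocampal neuronal cultures. They are the 87 genes of the authors' table whose symbols begin as those of chemokines and their receptors, interleukins, colony stimulating factors, TNF-named proteins, Toll-like receptors, TRAF adaptors or NF-kB proteins do, with Ccl2 and Ccl7 left out by the rule. They were taken by symbol out of 13739 identifiers in that table, and this set of families was proposed with earlier results of these data known. A choice by symbol also takes in genes whose proteins work elsewhere: Traf3ip1 codes for a component of intraflagellar transport in cilia, Il4i1 for an amino acid oxidase and Tnfaip1 for a ubiquitin ligase adaptor. Cytokine genes outside these rows, Tnf, Il1b and Il6 among them, were not analysed here.

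Polyadenylated RNA was sequenced from cultures of wild-type SD rat brain at day 18 in vitro. The 4 libraries labelled PAM come from cultures treated with a PAM of NMDA receptors. PAM stands for positive allosteric modulator, a drug that makes these glutamate receptors respond more strongly when glutamate binds. The 4 libraries labelled vehicle were the comparison, given vehicle alone. Both groups share strain, genotype and culture age, with compound, dose and treatment time not given in the sources used here. Nothing in the labels says that the libraries came from separate cultures, so p-values speak for the spread among these libraries only, and that spread may be technical.

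As background, cytokines act through receptors at the cell surface. Chemokines bind receptors coupled to G proteins. TNF ligands recruit adaptors such as TRADD and the TRAF proteins to the inner face of their receptors. Many interleukin receptors signal through JAK kinases and STAT factors. Some of these routes end at the IKK kinases, which mark the inhibitor proteins of the IkB family for destruction. This frees the NF-kB dimers to enter the nucleus. NF-kB then switches on the gene of its own inhibitor, Nfkbia, as well as Tnfaip3 and several chemokines. In brain, neurons, astrocytes, oligodendrocyte precursors and microglia each express different parts of this system, and Cx3cl1 is known as a chemokine of neurons that signals to microglia.

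The binding site of NF-kB, the kappa-B consensus of 10 letters, can be read in the promoters of several of these genes. RefSeq promoters of assembly GRCr8, 250 bases before to 50 bases after each start, matched 71 of the 87 members by Entrez identifier and symbol. On either strand, 21 of the 71 held the consensus (29.6%), against 1239 of all 27457 genes with a promoter in the table (4.51%). Genes with more than 1 promoter in the table had more chances to hold it. Among NF-kB subunit genes 3 of 4 held it, among the inhibitors 3 of 5, and among TNF receptors 0 of 7. The sequences shown are the 200 bases before the start of 4 genes that carry it and code for an inhibitor, a subunit, a feedback enzyme and a chemokine. They were chosen after the matches were seen. Capitals mark the matches, with overlapping matches joined. In Cxcl1 they join overlapping matches on both strands and so run longer than 10 letters. Tnfaip3 holds 3 matches that do not overlap.
Nfkbia, chr6:78597073-78597272, minus strand: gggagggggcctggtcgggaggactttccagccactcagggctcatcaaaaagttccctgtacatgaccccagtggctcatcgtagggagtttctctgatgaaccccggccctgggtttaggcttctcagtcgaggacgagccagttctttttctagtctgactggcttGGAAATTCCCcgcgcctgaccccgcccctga
Nfkb2, chr1:255108174-255108373, plus strand: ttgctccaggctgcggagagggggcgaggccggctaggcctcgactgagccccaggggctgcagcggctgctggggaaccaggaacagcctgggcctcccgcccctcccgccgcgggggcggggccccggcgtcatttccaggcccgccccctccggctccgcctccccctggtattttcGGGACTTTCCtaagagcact
Tnfaip3, chr1:15543980-15544179, minus strand: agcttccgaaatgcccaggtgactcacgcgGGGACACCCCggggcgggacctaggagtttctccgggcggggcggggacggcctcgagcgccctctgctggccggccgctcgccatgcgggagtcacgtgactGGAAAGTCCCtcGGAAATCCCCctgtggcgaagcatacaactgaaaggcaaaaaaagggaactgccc
Cxcl1, chr14:17479322-17479521, minus strand: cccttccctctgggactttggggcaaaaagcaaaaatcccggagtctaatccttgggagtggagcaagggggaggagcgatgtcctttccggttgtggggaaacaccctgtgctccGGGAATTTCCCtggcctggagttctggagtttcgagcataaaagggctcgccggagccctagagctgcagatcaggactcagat

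Libraries held 2960406 to 4389430 gene counts, and levels are given as CPM, a gene's counts scaled to a common library size. A gene without counts in a library can still be present at up to 0.683 to 1.01 CPM, the level of 3 counts (a limit for counting error only). Mitochondrial genes took 11.8% to 14.1% of counts. PAM 3 and PAM 4 stood apart from the other libraries in how counts depended on exonic length, with slopes of -0.0853 and -0.132 against 0.00524 to 0.0627 elsewhere. Values without them are given beside each printed gene value whose call or direction changed when they were left out, and for some others that moved. Members took 0.175% to 0.183% of all counts in vehicle and 0.193% to 0.212% in PAM.

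Of the 87 members, 53 had enough counts to be tested. With edgeR's quasi-likelihood test and a Benjamini-Hochberg adjusted p under 0.05 over all 11740 genes tested, 10 members rose in PAM and 3 fell. That is 18.9% and 5.66% of the tested members, beside 9% of all tested genes higher and 9.89% lower. In either direction, 24.5% of members passed, against 18.9% of all genes. The median log2 fold change was 0.31 over the tested members and 0.02 over all tested genes. Values were above 0 in 33 of 53 members (62.3%, against 51.9% of all genes). The PAM and vehicle libraries did not overlap for 12 members higher in PAM (22.6%, against 10.3% of all genes) and 4 lower (7.55%, against 12%). Tnfrsf19, Cxcl16, Cxcr4, Il17ra, Il17rc, Tnfsf12, Il11ra1, Tnfrsf1a, Cxcl14 and Nfkbia rose, and Il16, Tnfrsf21 and Cx3cl1 fell.

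**Figure D1:**
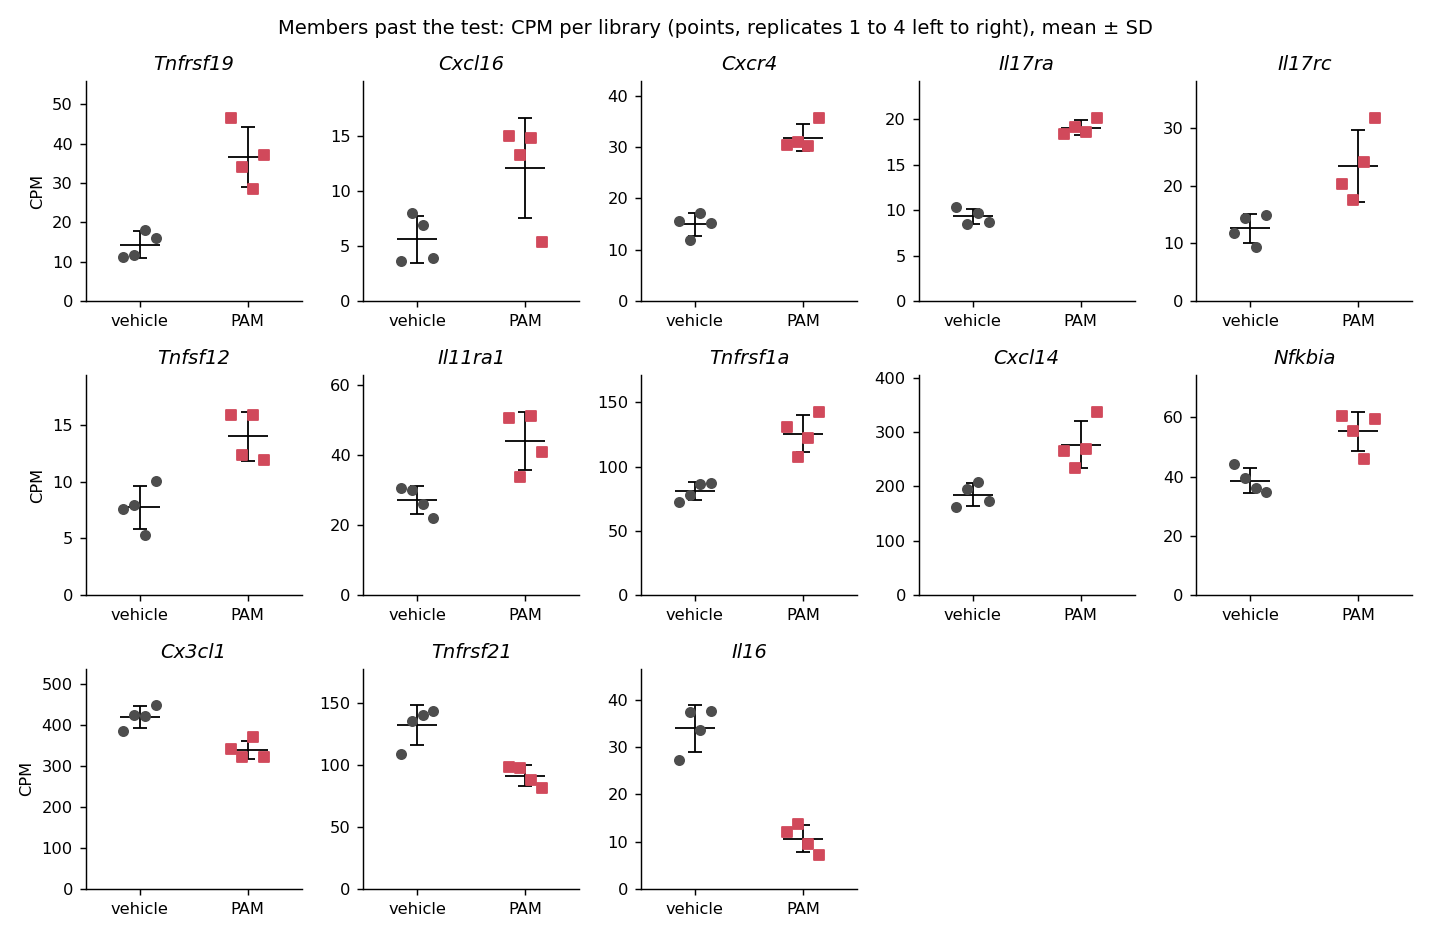
Level of the 13 members past the test in CPM (vertical axes, each starting at 0), with a point for each vehicle and PAM library and the group mean ± SD. The groups do not overlap for 12 of the 13 genes; for Cxcl16, PAM 4 lies at 5.41 CPM among the vehicle libraries.

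Markers of cell types also differed between the groups. Over all tested genes, 9% were higher and 9.89% lower in PAM. Summed levels of 9 astrocyte markers were 6283 to 6600 CPM in vehicle and 9185 to 11169 in PAM, with 5 of 9 tested genes higher. Oligodendrocyte lineage markers summed to 959 to 1074 against 1352 to 1757 CPM, with 6 of 11 higher and 1 lower. All 8 tested ependymal markers rose, from a sum of 55.7 to 89.3 CPM to 213 to 345 CPM. Neuronal markers fell in 5 of 8 tested genes, and their sum went from 3858 to 4484 CPM in vehicle to 2689 to 3126 CPM in PAM. These groups of markers differed between the same libraries as the called members described below, and their part in those results was not tested. In bulk RNA, fewer cells of a type and less RNA per cell cannot be told apart.

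Markers of microglia, endothelial cells, pericytes and fibroblasts were examined as well. Among 15 microglia and macrophage markers analysed, 7 were tested and edgeR called 0 (2 at an unadjusted p under 0.05, 0 by DESeq2 and 0 by limma-voom). Their sum was 103 to 160 CPM in vehicle and 100 to 123 in PAM, and markers such as Aif1, Trem2 and Tyrobp were too low to be tested. Of endothelial markers, Kdr rose and Emcn was too low to be tested (sum 5.95 to 11.6 against 12 to 22.8 CPM). Pericyte and fibroblast markers rose in 2 of 5, with sums of 95.8 to 147 against 132 to 238 CPM. No analysed marker of the lists given here was at 0 in all 8 libraries.

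**Figure D2:**
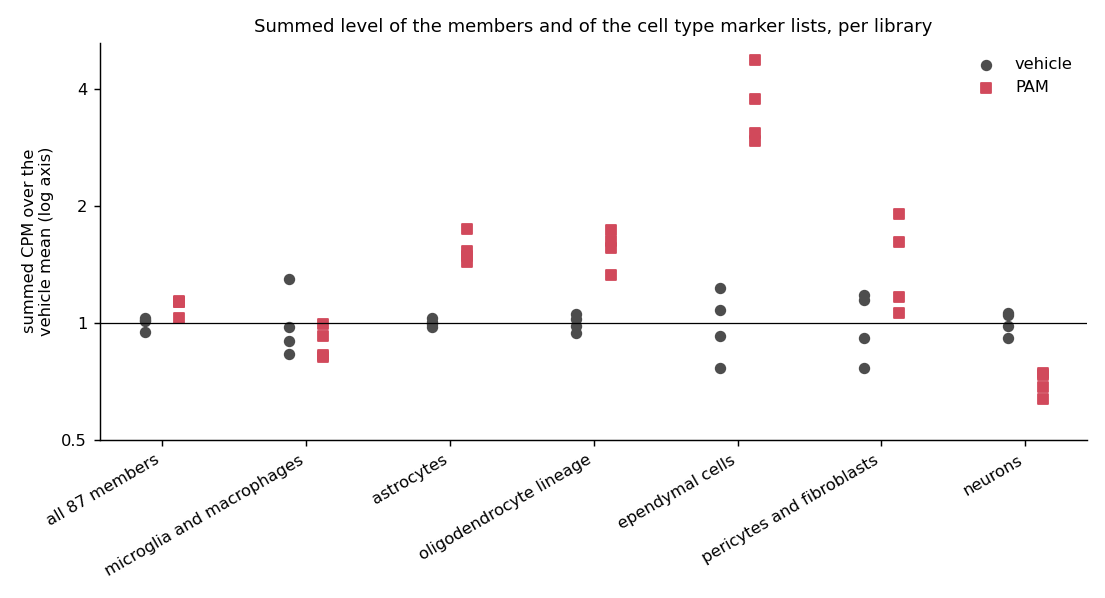
Summed level of all 87 members and of the marker lists in each library, divided by the mean of the vehicle libraries (log axis; circles vehicle, squares PAM). The neuronal sums of the PAM libraries lie below all vehicle libraries, those of astrocytes, the oligodendrocyte lineage and ependymal cells lie above, and the microglial sums of both groups overlap.

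Per kilobase of exon, the levels of the members spanned a wide range, with 18 above 10 CPM per kilobase in vehicle and 28 under 1. Cx3cl1 and Cxcl14, both chemokines, stood at the top and held 19.6% and 12% of all member counts. In vehicle, Cx3cl1 measured 134 ± 8.36 CPM per kilobase (SD, n = 4) and Cxcl14 115 ± 12.9. In PAM, Cx3cl1 measured 109 ± 7.32 and Cxcl14 172 ± 27.0. Cx3cl1 was thus the higher of the pair in the vehicle means and Cxcl14 in the PAM means, and in each single library the order was that of its group. Next in both groups came Tnfrsf1a, with 37.8 CPM per kilobase in vehicle and 58.8 in PAM, and Tnfrsf12a with 34.9 and 50.1. Tnfrsf21 was the fifth in vehicle with 30.3, and with 21.0 ranked 13 in PAM. Summed over the 87 members, levels were 1724 to 1866 CPM in vehicle and 1871 to 2064 in PAM. Without Cx3cl1 and Cxcl14, they were 1177 to 1235 and 1314 to 1443 CPM.

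Among the 10 chemokine ligand genes, 6 were tested, of which 2 rose and 1 fell, beside 9% and 9.89% of all tested genes. Cxcl14 (Ensembl ENSRNOG00000011984, Rnor_6.0 chromosome 17, 9109731 to 9117750, plus strand) codes for a chemokine found in some hippocampal interneurons as well as in epithelia. It measured 162, 196, 208 and 174 CPM in the vehicle libraries and 265, 235, 269 and 338 in the PAM libraries, here and below in the order of replicates 1 to 4. All PAM libraries lay above all vehicle libraries, and the rise was 1.5-fold (log2 0.58 ± 0.12 SE, adjusted p = 0.00253). Cxcl16 (ENSRNOG00000026647, chromosome 10, 57060007 to 57064600, minus strand) is a chemokine made as a membrane protein and released by cleavage. Its levels were 3.66, 7.98, 6.89 and 3.88 CPM in vehicle and 15, 13.2, 14.8 and 5.41 in PAM, so that PAM 4 fell among the vehicle libraries. The fitted rise was 2.17-fold (log2 1.12 ± 0.37, adjusted p = 0.0393). Its call was lost without PAM 1, 2 or 3 (adjusted p = 0.109, 0.0639 and 0.105) or vehicle 1, 3 or 4 (0.110, 0.0579 and 0.124), and with limma-voom (0.0565). Its exons share 119 bases with Zmynd15 on the other strand, which had 0 to 8 counts.

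Cx3cl1 (ENSRNOG00000016326, chromosome 19, 10644244 to 10653800, minus strand), or fractalkine, was the chemokine that fell. It measured 385, 424, 423 and 448 CPM in vehicle and 342, 323, 370 and 322 in PAM. The groups did not overlap, although the lowest vehicle library and the highest PAM library lay close together. The log2 fold change was -0.31 ± 0.10 (adjusted p = 0.0359). The call was lost without PAM 1 (0.0676), PAM 2 (0.0532), vehicle 2 (0.103), vehicle 3 (0.0900) or vehicle 4 (0.127), and once the trend with length was removed (0.0553). With the replicate number as a block, the adjusted p was 0.0599. The neuronal markers, which fell in the same libraries, are given above, and their part in this fall was not tested.

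Cxcl12 and Cxcr4 are a ligand and its receptor, known for guiding progenitors and interneurons in the developing hippocampus. Cxcr4 (ENSRNOG00000003866, chromosome 13, 45314933 to 45318878, minus strand) was the sole chemokine receptor tested. It measured 15.5, 11.8, 17.2 and 15.2 CPM in vehicle and 30.4, 30.9, 30.1 and 35.7 in PAM. Every PAM library was far above every vehicle library, a rise of 2.12-fold (log2 1.09 ± 0.19, adjusted p = 0.000598) that kept its call in all 8 fits with 1 library left out. Cxcl12 (ENSRNOG00000013589, chromosome 4, 149261044 to 149273891, plus strand) measured 18.3, 9.36, 13.5 and 7.44 CPM in vehicle and 37.8, 19.6, 23.5 and 11.5 in PAM. Its groups overlapped, and at a log2 fold change of 0.94 ± 0.33 it did not pass (adjusted p = 0.0515). It passed with DESeq2 (0.0485), upper-quartile scaling (0.0467), no low-count filter (0.00355), the replicate block (0.0138) or the trend with length removed (0.0221). It also passed without PAM 2 (0.0387), PAM 4 (0.00450), vehicle 1 (0.0300), or PAM 3 and PAM 4 together (log2 1.25, adjusted p = 0.000547). In the authors' deposited table its adjusted p is 0.0388.

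The other tested chemokines were Ccl27 and Cxcl1. Ccl27, a chemokine known from skin, measured 20.1, 21.2, 30.1 and 17.1 CPM in vehicle and 8.99, 10.02, 25.5 and 20.9 in PAM. PAM 1 and PAM 2 lay below all vehicle libraries while PAM 3 and PAM 4 lay within them. The log2 fold change was -0.46 ± 0.30 with all libraries (adjusted p = 0.314) and -1.20 without PAM 3 and PAM 4 (adjusted p = 0.000961). Cxcl1, a neutrophil attractant whose promoter is shown above, measured 3.96, 7.16, 4.38 and 4.21 CPM in vehicle and 5.99, 1.92, 3.29 and 0 in PAM. It did not pass (log2 fold change -0.76 ± 0.59, adjusted p = 0.404). Of 11 genes analysed from a list of chemokine pathway partners, 9 were tested and edgeR called 0 (2 at an unadjusted p under 0.05, 1 by DESeq2 and 0 by limma-voom). Gnai2, a G protein subunit that couples to chemokine receptors, had 587 ± 32.1 CPM in vehicle and 706 ± 72.9 in PAM (SD, n = 4; log2 fold change 0.27 ± 0.10, adjusted p = 0.0742), with a DESeq2 adjusted p of 0.0458. Without PAM 2, PAM 4, or PAM 3 and PAM 4 together, its adjusted p was 0.0486, 0.0211 and 0.00466. Among the others with the smallest p, Arrb2, the arrestin, Rarres2, the precursor of chemerin, and Gnai3 did not pass, and Gnai3 passed without PAM 3 and PAM 4 (log2 0.45, adjusted p = 0.0258).

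Of 10 interleukin genes, 5 were tested and 1 changed, beside 18.9% of all tested genes in either direction. Il16 (ENSRNOG00000011680, chromosome 1, 145781928 to 145870912, minus strand) codes for a precursor with PDZ domains, of which a long form is known in neurons. It measured 27.1, 37.4, 33.5 and 37.5 CPM in vehicle and 12, 13.6, 9.58 and 7.21 in PAM. The highest PAM library was well under the lowest vehicle library. With a log2 fold change of -1.65 ± 0.22 (adjusted p = 4.83e-05), Il16 had the largest change of the 13 called members, and its call held in all 8 fits with 1 library left out. Without PAM 3 and PAM 4 the log2 fold change was -1.39. The neuronal markers again fell in the same libraries, and their part in this fall was not tested.

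The other interleukins tested were Il33, Il17d, Il34 and Il25. Il33, an alarmin stored in the nuclei of glia, measured 41.2, 55.6, 44.1 and 56.6 CPM in vehicle and 71.4, 66.5, 55.0 and 54.1 in PAM. PAM 1 and PAM 2 were above all vehicle libraries and the other PAM libraries were not. Its log2 fold change was 0.33 ± 0.15 (adjusted p = 0.145) with all libraries and 0.49 without PAM 3 and PAM 4 (adjusted p = 0.0152). For Il17d, a member of the interleukin 17 family, it was -0.13 ± 0.27, and for Il34, a ligand of the Csf1 receptor that microglia depend on, it was -0.28 ± 0.29. The adjusted p of the 4 that did not pass ran from 0.145 to 0.792.

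Interleukin receptors and binding proteins were the largest class, with 19 members. Of these, 10 were tested, 3 higher and 0 lower, beside 9% and 9.89% of all tested genes. The median log2 fold change of the class was 0.44. Il17ra and Il17rc code for the chains of the receptor for interleukins 17A and 17F. Il17ra (ENSRNOG00000011153, chromosome 4, 152995865 to 153018394, plus strand) measured 10.4, 8.53, 9.71 and 8.74 CPM in vehicle and 18.4, 19.2, 18.6 and 20.2 in PAM. Replicates lay close together in both groups, and the rise was 2.04-fold (log2 1.03 ± 0.23, adjusted p = 0.00368), kept in all 8 fits with 1 library left out. Il17rc (ENSRNOG00000027376, chromosome 4, 145427367 to 145439843, plus strand) measured 11.9, 14.3, 9.39 and 14.9 CPM in vehicle and 20.3, 17.5, 24.1 and 31.7 in PAM. Its libraries were more spread, with PAM 4 the highest, and the rise was 1.83-fold (log2 0.87 ± 0.24, adjusted p = 0.0167). The call was lost without vehicle 3 (0.0610) and without PAM 3 and PAM 4 together (log2 0.59, adjusted p = 0.111). Among their family, the ligands Il17d and Il25 did not pass, and Il17b and the receptors Il17rb and Il17re were too low to be tested.

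Il11ra1 (ENSRNOG00000015068, chromosome 5, 58151985 to 58159072, plus strand) codes for the chain that binds interleukin 11 and signals with gp130. It measured 30.5, 30.004, 26 and 22 CPM in vehicle and 50.5, 33.7, 51.2 and 40.7 in PAM. The groups did not overlap, PAM 2 being the lowest of its group, and the rise was 1.62-fold (log2 0.70 ± 0.18, adjusted p = 0.0110). Without vehicle 4 the adjusted p was 0.0515. Il11ra1 and Ccl27 share 7 exon bases on opposite strands. Il6st, which codes for gp130, had a log2 fold change of -0.29 ± 0.33, and 0.08 without PAM 3 and PAM 4. Il11, the ligand, had 0, 6, 7 and 2 counts in vehicle and 17, 20, 22 and 7 in PAM. That was too few to be tested, and with no low-count filter its adjusted p was 0.0389 (0.0455 with DESeq2).

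Among receptor genes that did not pass, Il3ra, the interleukin 3 receptor chain, measured 44.5, 42.9, 40.1 and 31.7 CPM in vehicle and 25.6, 23.9, 37.5 and 55.9 in PAM. Here PAM 1 and PAM 2 were below all vehicle libraries and PAM 4 above them. Its log2 fold change was -0.18 ± 0.23 (adjusted p = 0.633) and, without PAM 3 and PAM 4, -0.68 (adjusted p = 0.00768). Il3ra shares 70 exon bases with Asmtl on the other strand, which had 156 to 276 counts, so its value is uncertain. Il18bp, a decoy that binds interleukin 18, had a log2 fold change of 0.50 ± 0.31, and Il10rb, a chain of the interleukin 10 receptor, had 0.31 ± 0.32. The 7 that did not pass, with Il4r, Il6r, Il1rap and Il6st among them, ran from -0.29 to 0.50.

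A list of 33 gp130 cytokines, JAK kinases, STAT factors and SOCS proteins covered the signalling path below many of these receptors. Of its 25 tested genes, 1 rose and 4 fell (median log2 fold change 0.06), beside 9% and 9.89% of all tested genes. Cish, a SOCS-family inhibitor that STAT5 induces, rose from 3.35 ± 0.367 to 8.90 ± 1.94 CPM (SD, n = 4; log2 1.41 ± 0.36, adjusted p = 0.00999). Socs5, another inhibitor of the family, fell from 58.6 ± 3.94 to 35.1 ± 7.39 CPM (log2 fold change -0.73 ± 0.16, adjusted p = 0.00331). Socs2 fell as well, with a log2 fold change of -1.15 ± 0.31 (adjusted p = 0.0133, and 0.0571 without vehicle 4). Pias3, an inhibitor of STAT3, fell with -0.59 ± 0.18 (adjusted p = 0.0315). Its call was lost without PAM 1 (0.0696), PAM 3 (0.0745), vehicle 2 (0.113), vehicle 3 (0.0688), vehicle 4 (0.0942), or PAM 3 and PAM 4 together (0.0638). The other gene that fell was Socs7. Of the 5 genes of the list that changed, 4 code for SOCS-family proteins, of which Cish rose and Socs2, Socs5 and Socs7 fell. None of the JAK or STAT genes tested passed.

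Colony stimulating factors drive the growth of myeloid cells, and Csf1 together with Il34 acts on the receptor Csf1r of microglia. Of 3 members, Csf1 and Csf2ra were tested and edgeR called 0 (0 at an unadjusted p under 0.05, 0 by DESeq2 and 0 by limma-voom). Csf1 measured 24.7, 26.7, 23.2 and 27.8 CPM in vehicle and 37.1, 21.7, 25.5 and 26.3 in PAM, with PAM 1 alone above the vehicle libraries (log2 fold change 0.11 ± 0.19, and -0.07 without PAM 1). Csf2ra, a receptor chain, measured 13.7, 11.8, 12.8 and 12 CPM in vehicle and 9.68, 6.61, 12.9 and 33.9 in PAM, where PAM 4 was far above the others. Its log2 fold change was 0.28 ± 0.39 with all libraries, and the direction turned without PAM 4 (-0.38), without PAM 3 and PAM 4 (-0.62) and with limma-voom (-0.11). Csf1r itself had 4 to 14 counts in vehicle and 0 to 14 in PAM and was not tested.

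TNF superfamily ligands and receptors had the called receptor with the largest rise. Of 8 receptor genes, 7 were tested, 2 rose and 1 fell, beside 9% and 9.89% of all tested genes. The median log2 fold change of these receptors was 0.56. Tnfrsf19 (ENSRNOG00000014265, chromosome 15, 41246308 to 41338284, minus strand), also called TROY, is known from neural progenitors and glia. It measured 11.3, 11.8, 18.2 and 16.2 CPM in vehicle and 46.6, 34.1, 28.5 and 37.1 in PAM. The lowest PAM library was well above the highest vehicle library, a rise of 2.55-fold (log2 1.35 ± 0.22, adjusted p = 0.000228). Tnfrsf1a (ENSRNOG00000031312, chromosome 4, 157864969 to 157877633, plus strand) codes for TNF receptor 1, the main receptor for soluble TNF. It measured 72.3, 77.6, 86.1 and 87 CPM in vehicle and 130, 108, 122 and 143 in PAM. Again all PAM libraries were higher, with a rise of 1.55-fold (log2 0.64 ± 0.12, adjusted p = 0.00103).

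Tnfrsf21 (ENSRNOG00000011517, chromosome 9, 20546159 to 20621051, minus strand), or death receptor 6, is known from neurons and axon pruning. It measured 108, 135, 140 and 143 CPM in vehicle and 98.4, 97.7, 87.6 and 81.1 in PAM. The groups did not overlap, with vehicle 1 nearest to the PAM libraries, and the log2 fold change was -0.53 ± 0.12 (adjusted p = 0.00459). The calls of Tnfrsf19, Tnfrsf1a and Tnfrsf21 held in all 8 fits with 1 library left out and without PAM 3 and PAM 4. The direction of Tnfrsf21 was that of the neuronal markers, and the direction of the other two was that of the astrocyte, oligodendrocyte lineage and ependymal markers. Any called gene shares its direction with some of these markers, and their part was not tested.

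Tnfsf12 (ENSRNOG00000045670, chromosome 10, 56290780 to 56300077, minus strand), or TWEAK, was the TNF ligand that rose, of 5 members and 2 tested. Of all tested genes, 9% rose. Tnfsf12 measured 7.62, 7.98, 5.32 and 10.03 CPM in vehicle and 15.9, 12.4, 15.9 and 11.9 in PAM. The groups did not overlap, and the rise was 1.81-fold (log2 0.86 ± 0.28, adjusted p = 0.0387). Its call was lost without PAM 1 (0.104), PAM 3 (0.0927), vehicle 1 (0.0733), vehicle 2 (0.0841) or vehicle 3 (0.116). It was also lost with the replicate block (0.0642), with no low-count filter (0.0580) and with the trend with length removed (0.0547). Tnfrsf12a codes for Fn14, the receptor for TWEAK, and measured 47.3, 26.4, 30.1 and 30.7 CPM in vehicle and 45.2, 34.8, 56.7 and 56.2 in PAM. Vehicle 1 lay among the PAM libraries, and the gene did not pass (log2 fold change 0.51 ± 0.20, adjusted p = 0.0823). Without vehicle 1 it passed (log2 0.73, adjusted p = 0.0209), as it did without PAM 2 (0.0214) and when no low-count filter was applied (0.0371). In the other alternatives it did not pass, with a log2 fold change of 0.26 without PAM 3 and PAM 4 (adjusted p = 0.372) and 0.36 with the trend with length removed (0.179).

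Other TNF ligands and receptors did not pass. Tnfrsf9, known as 4-1BB, measured 5.18, 9.08, 10.6 and 8.09 CPM in vehicle and 12.2, 11.1, 13.4 and 11.9 in PAM. Its groups did not overlap, but the difference was not past the test (log2 fold change 0.56 ± 0.29, adjusted p = 0.191). Tnfrsf25, or death receptor 3, had -1.20 ± 0.62 at low levels, with PAM 3 at 0. Tnfrsf11a, which codes for RANK and was singled out after its values were seen, had 1.09 ± 0.45 (adjusted p = 0.0994, and 0.0411 without PAM 4). Tnfsf13, the ligand APRIL, had -0.05 ± 0.44, and 0.15 without PAM 3 and PAM 4.

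Genes named for their induction by TNF showed 5 tested of 8, of which edgeR called 0 (2 at an unadjusted p under 0.05, 0 by DESeq2 and 0 by limma-voom). Tnfaip6, a secreted protein that binds hyaluronan, measured 5.18, 5.23, 3.76 and 2.26 CPM in vehicle and 9.68, 12.4, 5.48 and 6.13 in PAM. The groups did not overlap, with PAM 1 and PAM 2 the highest (log2 fold change 1.04 ± 0.39, adjusted p = 0.0742). Its adjusted p was 0.0387 without PAM 4 and 0.00696 without PAM 3 and PAM 4 (log2 1.42). Tnfaip8l3, a phospholipid transfer protein, measured 12.5, 12.9, 11.9 and 20.4 CPM in vehicle and 3.69, 10.02, 13.1 and 8.65 in PAM, where PAM 3 lay among the vehicle libraries. Its log2 fold change was -0.70 ± 0.33 (adjusted p = 0.156) and -1.04 without PAM 3 and PAM 4 (adjusted p = 0.0280). Tnfaip1 had 0.22 ± 0.11 (adjusted p = 0.172). Tnfaip3, the feedback enzyme A20 whose promoter with 3 matches is shown above, had 3 to 17 counts in vehicle and 3 to 10 in PAM and was not tested.

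TRAF proteins link these receptors to kinases and ubiquitin ligases. Of 8 members, 6 were tested and edgeR called 0 (2 at an unadjusted p under 0.05, 0 by DESeq2 and 0 by limma-voom). Traf2, the adaptor of TNF receptors 1 and 2, measured 11.6, 21.2, 18.5 and 14.6 CPM in vehicle and 18.9, 22, 19.7 and 37.1 in PAM. PAM 4 stood far above the others and the rest overlapped (log2 fold change 0.55 ± 0.25, adjusted p = 0.145; 0.29 without PAM 4 and 0.32 without PAM 3 and PAM 4). Traf4 measured 45.4, 61.9, 66.1 and 66.3 CPM in vehicle and 78.6, 68.2, 86.5 and 64.5 in PAM (0.32 ± 0.15, adjusted p = 0.146), and Traf7 had 0.06 ± 0.13. Traf3, which restrains the non-canonical NF-kB route and was singled out after its values were seen, had -0.47 ± 0.27, and -0.77 without PAM 2 (adjusted p = 0.0435). The ciliary gene Traf3ip1, also singled out after its values were seen, had 0.51 ± 0.29.

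From a list of 32 receptor adaptors and proximal kinases, 22 genes were tested (median log2 fold change 0.12). Of these, 2 rose and 0 fell, beside 9% and 9.89% of all tested genes. Tradd, the first adaptor of TNF receptor 1, had 4.17 ± 1.73 CPM in vehicle and 8.95 ± 2.32 in PAM (SD, n = 4; log2 1.10 ± 0.38, adjusted p = 0.0469). Its groups overlapped. The call was lost without PAM 1 (0.123), PAM 3 (0.124), vehicle 2 (0.129), vehicle 3 (0.103), vehicle 4 (0.137), or PAM 3 and PAM 4 together (0.0531). Map3k14, the NIK kinase of the non-canonical route, had 5.74 ± 1.04 CPM in vehicle and 11.1 ± 2.96 in PAM (log2 0.94 ± 0.32, adjusted p = 0.0469). With 1 library left out, its call held without PAM 2 and was lost without each of the other libraries: PAM 1 (0.0745), PAM 3 (0.136), PAM 4 (0.0674), vehicle 1 (0.0893), vehicle 2 (0.134), vehicle 3 (0.0782) and vehicle 4 (0.0738). It was also lost without PAM 3 and PAM 4 together (log2 0.63, adjusted p = 0.266). Ripk1, a kinase of the TNF receptor 1 complex, did not pass (log2 fold change 0.71 ± 0.28, adjusted p = 0.0849; 0.0288 without PAM 4). Tank, a TRAF-binding protein, did not pass either (0.77 ± 0.32, adjusted p = 0.111; 0.0322 without PAM 3 and 0.0167 without PAM 3 and PAM 4).

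NF-kB subunits showed no common direction. Of 5 members, 4 were tested and edgeR called 0 (1 at an unadjusted p under 0.05, 0 by DESeq2 and 0 by limma-voom). Rela, the main activating subunit, measured 38.7, 34.4, 47.0 and 53.1 CPM in vehicle and 42.4, 41.4, 49.6 and 30.3 in PAM, with wide overlap (log2 fold change -0.07 ± 0.18, adjusted p = 0.822). Nfkb2, the subunit of the non-canonical route whose promoter is shown above, measured 14.3, 16.8, 15.3 and 15.9 CPM in vehicle and 21.4, 18.3, 23.8 and 19.5 in PAM. All PAM libraries were higher, but the difference did not pass (0.41 ± 0.21, adjusted p = 0.176). Relb, the partner of Nfkb2, measured 11, 15.4, 12.2 and 13.9 CPM in vehicle and 6.22, 8.74, 8.49 and 8.65 in PAM. All PAM libraries were lower, and this difference did not pass either (-0.71 ± 0.27, adjusted p = 0.0748). Nfkb1 had -0.14 ± 0.22 (0.11 without PAM 3 and PAM 4), and Rel, with 0 to 3 counts in vehicle and 0 to 11 in PAM, was not tested.

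Of the 6 inhibitors and related genes, 5 were tested and Nfkbia rose, beside 9% of all tested genes. Nfkbia (ENSRNOG00000007390, chromosome 6, 76267228 to 76270457, minus strand) codes for IkB alpha, the inhibitor that NF-kB itself induces. It measured 44.2, 39.6, 36.0 and 34.6 CPM in vehicle and 60.4, 55.4, 46.0 and 59.5 in PAM. The groups did not overlap, PAM 3 lying closest to vehicle 1, and the rise was 1.43-fold (log2 0.52 ± 0.15, adjusted p = 0.0210). The call was lost without PAM 1 (0.0667), vehicle 2 (0.0508), vehicle 3 (0.0653) or vehicle 4 (0.0778). Nfkbib and Nfkbie, which code for IkB beta and epsilon, had log2 fold changes of 0.28 ± 0.17 and -0.27 ± 0.22 (0.07 and -0.48 without PAM 3 and PAM 4). Nfkbil1 had 0.15 ± 0.23, which turned to -0.12 without PAM 4 and -0.34 without PAM 3 and PAM 4. The value is also uncertain because Nfkbil1 shares 397 exon bases with Atp6v1g2 on the other strand, which had 640 to 1122 counts. Nfkbiz, a nuclear protein of the family, had 0.81 ± 0.41 (adjusted p = 0.178). Nfkbia was the sole member among those that rose whose promoter held the kappa-B consensus, of 7 with a promoter in the table. None of the 3 that fell held it, against 10 of 34 that did not pass and 10 of 27 that were not tested.

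**Figure D3:**
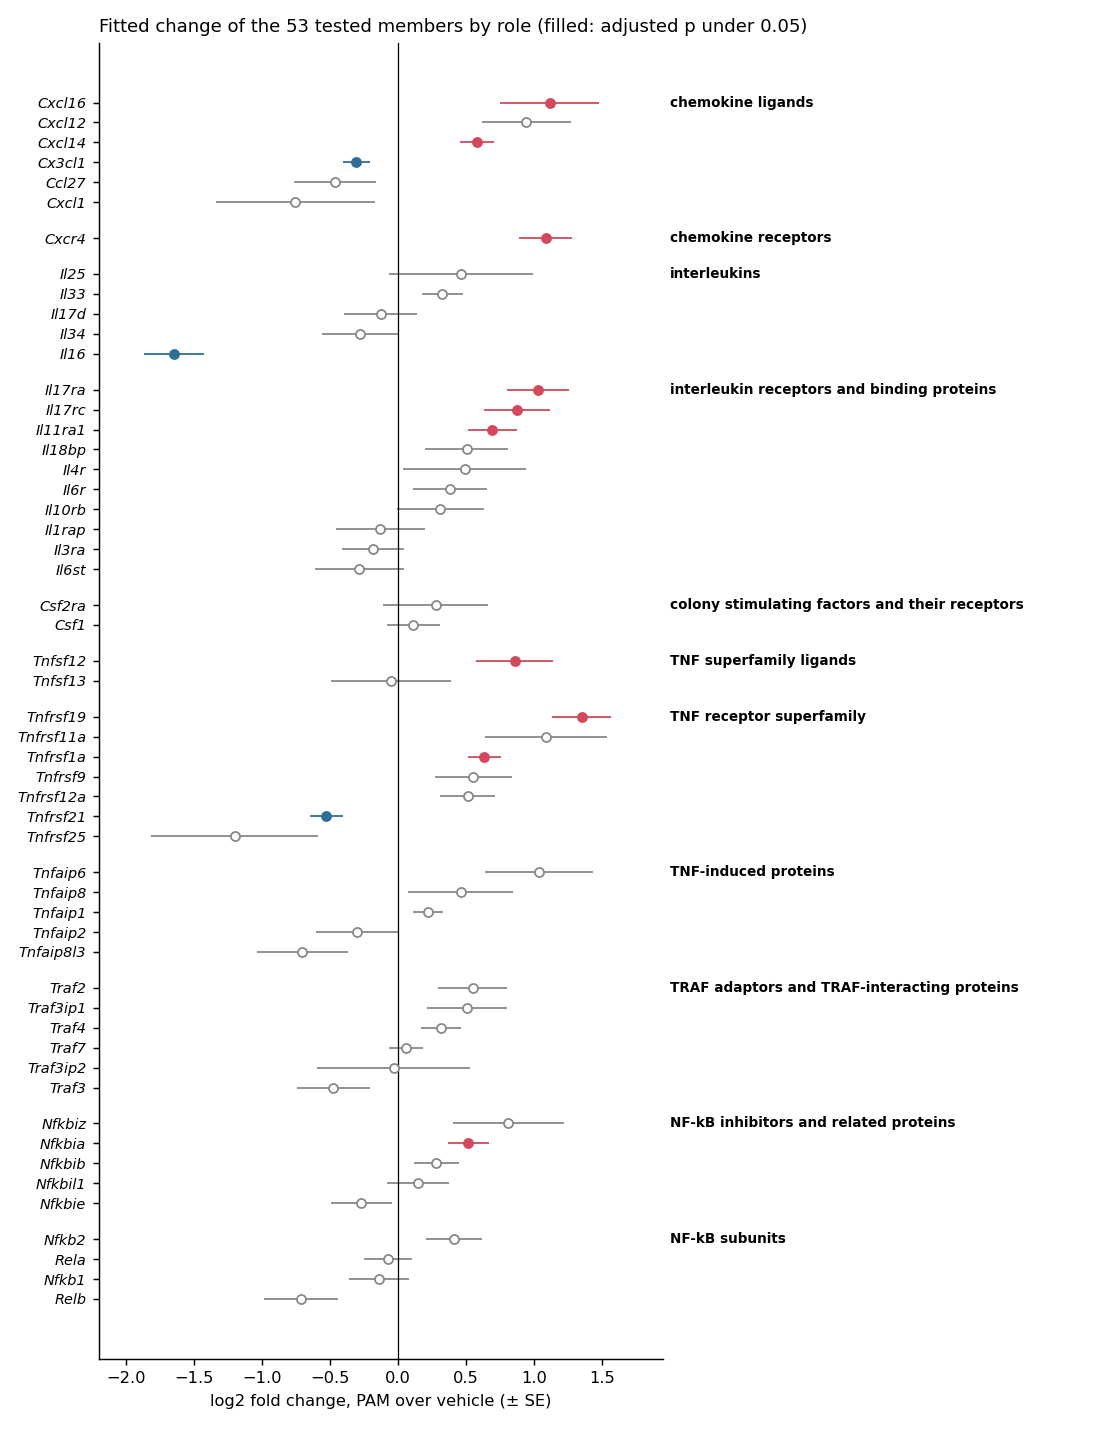
Fitted log2 fold change (PAM over vehicle, ± SE) of the 53 tested members, grouped by role, with filled points for an adjusted p under 0.05. Members that rose were 3 of 10 tested interleukin receptors and binding proteins, 2 of 7 TNF receptors and 1 of 1 chemokine receptors. The others that rose were 2 of 6 chemokine ligands, 1 of 2 TNF ligands and 1 of 5 NF-kB inhibitors and related genes. Those that fell were 1 of 6 chemokine ligands, 1 of 7 TNF receptors and 1 of 5 interleukins. Across all tested genes, 9% rose and 9.89% fell. The subunits of NF-kB lie on both sides of 0.

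A list of 26 genes covered the IKK complex, linear ubiquitin chains and the control of NF-kB. Of its 19 tested genes, 1 was higher and 1 lower (median log2 fold change 0.19), beside 9% and 9.89% of all tested genes. Ikbkb, the kinase that phosphorylates IkB alpha, rose from 21.9 ± 3.06 to 33.0 ± 6.26 CPM (SD, n = 4; log2 0.58 ± 0.19, adjusted p = 0.0401). With 1 library left out its call held without PAM 1 and was lost without PAM 2 (0.0516), PAM 3 (0.0566), PAM 4 (0.0961), vehicle 1 (0.116), vehicle 2 (0.0794), vehicle 3 (0.0682) and vehicle 4 (0.0710), as well as without PAM 3 and PAM 4 together (0.121). Btrc, the ubiquitin ligase subunit that recognises phosphorylated IkB, fell from 80.4 ± 2.93 to 61.2 ± 2.86 CPM (-0.39 ± 0.12, adjusted p = 0.0243). Without vehicle 1, 2, 3 or 4 its adjusted p was 0.0667, 0.0563, 0.0610 and 0.0534. It was 0.0704 without PAM 3 and PAM 4 and 0.0996 with the trend with length removed. Pdlim2, a ligase for nuclear Rela, did not pass (log2 1.32 ± 0.47, adjusted p = 0.0564). It passed without PAM 2 (0.0402), without PAM 4 (0.00796), without both PAM 3 and PAM 4 (0.0145) and with no low-count filter (0.0374). Chuk, the other catalytic kinase of the complex, did not pass (0.51 ± 0.22, adjusted p = 0.121), with an adjusted p of 0.0483 without PAM 3 and 0.0477 without PAM 3 and PAM 4.

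Textbook targets of NF-kB outside the member families went in both directions. Of 20 tested, 3 rose and 2 fell, beside 9% and 9.89% of all tested genes. The median log2 fold change of the list was 0.06. Lcn2, a secreted protein that binds iron carriers and is known from reactive astrocytes, fell from 314 ± 45.3 to 140 ± 36.4 CPM (SD, n = 4; log2 fold change -1.16 ± 0.16, adjusted p = 8.13e-05). Bcl2l1, an inhibitor of apoptosis, fell with -0.47 ± 0.11 (adjusted p = 0.00636). Mmp3, a matrix protease, rose from 9.69 ± 2.99 to 20.1 ± 3.63 CPM (1.04 ± 0.26, adjusted p = 0.00869), and Vcam1, an adhesion molecule, rose from 29.7 ± 4.69 to 46.2 ± 5.38 CPM (0.64 ± 0.17, adjusted p = 0.0104). The other gene that rose was Ccnd1. Lcn2 fell in the libraries in which astrocyte markers were higher, and a link between them was not tested.

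Of 10 genes for the inflammasome and the processing of interleukin 1, 4 were analysed and 3 tested. All 3 changed, beside 18.9% of all tested genes in either direction. Gsdmd, the pore-forming protein of pyroptosis, rose from 5.84 ± 1.86 to 14.0 ± 2.49 CPM (SD, n = 4; log2 1.25 ± 0.31, adjusted p = 0.00761). Casp4, a caspase that can cleave it, fell from 26.2 ± 1.31 to 14.5 ± 4.98 CPM (log2 fold change -0.88 ± 0.23, adjusted p = 0.0117). Txnip, a thioredoxin-binding protein, rose with 0.48 ± 0.16 (adjusted p = 0.0415) although its groups overlapped. Its call was lost without PAM 1 (0.172), PAM 2 (0.0765), vehicle 1 (0.0568), vehicle 2 (0.0726), vehicle 3 (0.0954) or vehicle 4 (0.153).

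The 34 members too low to be tested never exceeded 22 counts in a library, and 22 of them were at 0 in at least 1 library. They were the chemokines Ccl17, Ccl20, Cxcl3 and Cxcl6, the receptor Ccr10, the interleukins Il11, Il17b, Il18, Il23a and Il27, and Il4i1. Receptors among them were Il12rb2, Il13ra1, Il17rb, Il17re, Il18rap, Il1r1, Il20rb, Il27ra, Il2rb, Csf1r and Tnfrsf4. The rest were Tnfsf13b, Tnfsf18, Tnfsf9, Tnfaip3, Tnfaip8l1, Tnfaip8l2, Traf1, Traf6, Tlr2, Tlr6, Rel and Nfkbid. Il18rap, a chain of the interleukin 18 receptor, had 4, 3, 2 and 2 counts in vehicle and 18, 17, 11 and 5 in PAM, all PAM libraries above all vehicle libraries. Its adjusted p was 0.0469 with DESeq2, 0.0837 in edgeR with no low-count filter and 0.0188 in edgeR without PAM 3 and PAM 4. Cxcl6 had 3 to 8 counts in vehicle and 5 to 20 in PAM. Both Toll-like receptor genes, Tlr2 and Tlr6, sensors of bacterial lipoproteins, stayed at 10 counts or fewer. Their adjusted p in edgeR with no low-count filter was 0.993 and 0.461, and a change could be missed at such counts. With no low-count filter, 12 of 87 members were higher and 3 lower, where 6.5% and 6.49% of all 19312 genes were called. The median log2 fold change of all 87 was 0.28 against 0.05 for all genes. With DESeq2, 13 of 69 members were higher and 3 lower, where 8.42% and 9.09% of all genes were called. The additions were Cxcl12, Il11 and Il18rap. The authors' deposited table gives an adjusted p under 0.05 to 16 members, the 13 called here and the same additions.

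Leaving out libraries split the 13 called members in a group of 7 whose call held in all 8 such fits (Il16, Tnfrsf19, Cxcr4, Tnfrsf1a, Cxcl14, Il17ra and Tnfrsf21) and 6 that lost it in at least 1. Without PAM 3 and PAM 4, 58 members were tested. Of these, 13 were higher and 6 lower, where 11.2% and 12.5% of all genes were called. Those lower were Il16, Tnfrsf21 and Cx3cl1, joined by Ccl27, Il3ra and Tnfaip8l3.

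**Figure D4:**
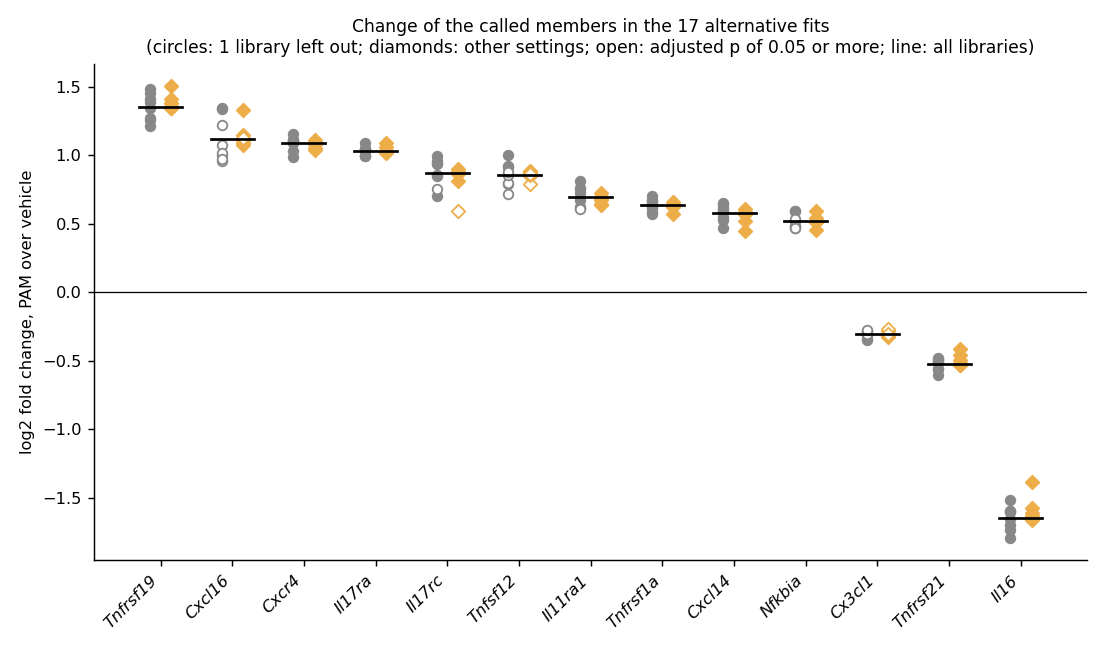
Log2 fold change (PAM over vehicle) of the 13 called members in 17 alternative fits, with circles for fits without 1 library, diamonds for other settings, open symbols for an adjusted p of 0.05 or more and a line for all libraries. No symbol crosses 0, and open symbols appear for Cxcl16, Il17rc, Tnfsf12, Il11ra1, Nfkbia and Cx3cl1.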

How the data were processed

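Raw gene counts of 8 libraries were used, deposited by the authors as 1 table of whole-number counts per library, with the positions and the summed length of each Ensembl gene's exons, per the file headers. Per the submitters' processing notes, STAR and featureCounts were used on Rnor_6.0, and DESeq and DESeq2 are listed as well. With annotation release, strandedness and handling of multi-mapped reads not given in the sources used here, values of near copies (Cxcl1, Cxcl3, Cxcl6) and of overlapping genes are uncertain. The authors' deposited table of their own comparison holds group means (signal values), log2 fold changes and p-values; it served to pair identifiers with symbols and for the values credited to it.

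Members and lists were chosen with earlier results of these data known. After filterByExpr (11740 genes kept) and TMM scaling, counts were fitted in edgeR 4.0.16 (R 4.3.3, limma 3.58.1) by the robust quasi-likelihood test with group as the only term and Benjamini-Hochberg adjustment over all genes, at 0.05 and no fold threshold. SE is the log2 fold change over the square root of F. The common coefficient of variation was 17.7%. CPM uses TMM-scaled library sizes. Replicate pairs varied beyond counting noise (chi-square per degree of freedom 2.85 to 15.9), and each library counted as 1 sample. Named were all members past the test, up to 3 others of each class with the highest length-scaled level, and the 4 genes of each pathway list with the smallest p; Tnfrsf11a, Traf3, Traf3ip1, Nfkb1, Nfkbiz, Il6st and untested members given with counts were added after their values were seen, and others named to complete a count or class. As alternatives served upper-quartile and RLE scaling, limma-voom, DESeq2 1.42.0, no filter, a mean of at least 1 CPM, a replicate block, removal of the trend with length per library (loess, span 0.5), each library left out, and PAM 3 and PAM 4 left out together. The result of 1 marker list is not reported here. The fit was tested on simulated counts. It recovered 30.3% of 1.5-fold, 72.7% of 2-fold and 100% of 4-fold changes, and 4 of its 137 calls were false. The simulation changed 66, 66 and 65 tested genes by these amounts, far fewer than the 2218 called in the data. Its rates may therefore not hold for the data. Members that did not pass may still differ by 1.5-fold or 2-fold.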

Additional observations from a re-analysis of the deposited data

Results flagged for a closer look

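In 9 of 126 groups of 4 libraries examined (63 named genes), 1 library lay far from the others, by the gap to its nearest neighbour over the range of the group; chance flags about 1 in 20 groups. Among genes of chemokines and their receptors, Cxcl1 was highest in vehicle 2 (7.16 CPM against 3.96 to 4.38, gap over range 0.869). Cxcr4 was highest in PAM 4 (35.7 against 30.1 to 30.9, 0.856). Rarres2, from the list of chemokine pathway partners, was highest in vehicle 3 (10.6 against 4.40 to 4.57, 0.973). Il18bp was highest in vehicle 1 (12.8 CPM against 6.33 to 6.89, 0.914) and Tnfaip8l3 in vehicle 4 (20.4 against 11.9 to 12.9, 0.877). Traf2 was highest in PAM 4 (37.1 CPM against 18.9 to 22, 0.832) and Socs5 in PAM 2 (46.1 against 29.9 to 32.6, 0.835). Relb was lowest in PAM 1 (6.22 CPM against 8.49 to 8.74, 0.899) and Ikbkb in vehicle 1 (17.4 against 22.8 to 23.9, 0.833).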

How the results depend on the processing

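The 13 called members kept their direction in all 17 alternatives. Of the genes named with values that did not pass, Csf1, Csf2ra, Il17d, Nfkbil1, Rela, Tnfsf13, Traf7, Il6st, Nfkb1 and Rarres2 changed sign in at least 1, and none of these passed the test there (Rela 0.04 without PAM 4 or vehicle 4, Il17d 0.02 without PAM 4 or vehicle 3, Rarres2 -0.05 without PAM 3 and PAM 4). Members called numbered 7 to 15 higher and 2 to 3 lower over the fits without 1 library, where 1527 to 2408 genes were called in all, against 10, 3 and 2218 with all libraries. Without PAM 3 and PAM 4 together, 6 members were lower and 2900 genes were called; the cause was not tested. The labels do not say whether the replicate numbers pair the libraries. Same-numbered correlations of deviations were 0.0516, -0.0454, 0.0676 and -0.0595, and those of differently numbered libraries -0.148 to 0.116. These values show no pairing but cannot exclude it. With the replicate number as a block, 2064 genes were called, 10 members higher and 2 lower. Other settings gave 9 to 13 members higher and 2 to 3 lower. Depth limits the 34 untested members, and 44 of the 53 tested had at least 10 counts in every library.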
